A study of Homo sapiens with 6 samples.

Results

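The genes described here are those of telomerase, of the shelterin complex and of 2 telomere helicases: TERT, DKC1, TERF1, TERF2, TERF2IP, TINF2, ACD, POT1, RTEL1 and PIF1. They were taken by name from a table of 16311 genes, in which 9 of the 10 had a row, including 5 of the 6 shelterin subunits; TINF2 had none and is not analysed here. The set was put together with the FIR over untreated values of TERT and PIF1 already in view, so the members' values are given as a description, without p-values, and a count of members past a threshold supports nothing. RNA was sequenced from LNCaP, an established androgen-sensitive line of human prostate adenocarcinoma. In 3 libraries the cells had received FIR to a cumulative 40 Gy, and in 3 others the same line was untreated. The labels do not spell out FIR; the series title ties it to radiation and to neuroendocrine-like cells. They give no time between dose and harvest. They number the libraries of a group after the letters BR, not spelled out, and do not state that the cultures were separate. The p-values therefore reflect the spread among these libraries, which may be technical.

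Telomeres are the repeated ends of chromosomes, and they shorten at each round of DNA replication unless telomerase adds repeats. Telomerase is a reverse transcriptase, TERT, working on an RNA template held by dyskerin, the DKC1 product. Most somatic cells keep TERT silent, whereas most carcinomas, prostate cancers included, express it. Shelterin coats the repeats and keeps them from being read as broken DNA: TERF1 (TRF1) and TERF2 (TRF2) bind the double strand, POT1 binds the single-stranded overhang, ACD (TPP1) joins POT1 to the complex and recruits telomerase, TINF2 (TIN2) bridges the parts, and TERF2IP (RAP1) binds TRF2. RTEL1 unwinds telomeric loops during replication, and PIF1, a helicase that travels 5′ to 3′, removes telomerase from DNA ends in yeast.

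The promoter windows of TERT, PIF1 and TERF2IP are shown because TERT and PIF1 had the lowest FIR values among the members and TERF2IP was the member that was higher. From RefSeq on GRCh38.p14, 10 windows for 8 of the 10 members were used, each running from 250 bases before a start site to 50 bases after it. No TERF1 window was used, whatever RefSeq holds for that gene, and TERF2 had none. Capitals mark matches on either strand to a CHR element (TTTGAA or TTCGAA), known from promoters of genes of the late cell cycle, a CCAAT box (CCAAT), an E-box (CACGTG), a GC box (GGGCGG), the telomeric repeat (TTAGGG) or an E2F site (TTTCCCGC, TTTGGCGC, TTTCGCGC or TTTGCCGC). The TERT window is chr5:1295019-1295318, that of PIF1 is chr15:64825598-64825897, both on the minus strand, and that of TERF2IP is chr16:75647523-75647822 on the plus strand.
TERT: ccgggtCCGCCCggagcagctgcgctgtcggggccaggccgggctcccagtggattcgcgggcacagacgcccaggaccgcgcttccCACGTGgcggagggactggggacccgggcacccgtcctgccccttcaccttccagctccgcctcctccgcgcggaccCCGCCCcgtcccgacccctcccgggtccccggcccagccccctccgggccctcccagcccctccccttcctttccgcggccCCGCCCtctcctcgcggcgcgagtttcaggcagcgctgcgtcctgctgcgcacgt
PIF1: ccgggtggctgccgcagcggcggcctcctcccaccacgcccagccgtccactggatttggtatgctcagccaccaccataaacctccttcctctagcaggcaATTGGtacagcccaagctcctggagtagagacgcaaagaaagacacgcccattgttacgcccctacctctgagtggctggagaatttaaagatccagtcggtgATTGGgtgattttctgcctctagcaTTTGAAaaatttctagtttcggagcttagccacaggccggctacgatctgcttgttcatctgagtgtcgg
TERF2IP: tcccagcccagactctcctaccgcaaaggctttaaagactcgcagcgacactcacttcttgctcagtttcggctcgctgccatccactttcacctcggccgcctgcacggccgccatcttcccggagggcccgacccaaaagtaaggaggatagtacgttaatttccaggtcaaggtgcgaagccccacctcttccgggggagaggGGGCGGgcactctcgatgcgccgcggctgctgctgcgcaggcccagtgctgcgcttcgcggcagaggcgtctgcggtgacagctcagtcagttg
The 3 windows differ in letters and in base composition. PIF1 holds 1 CHR element starting at position -20 and 2 CCAAT boxes, read on the opposite strand, at -148 and -45, with no GC box. TERT holds an E-box at -163 and 3 GC boxes at -244, -86 and -5, with no CHR element and no CCAAT box, and TERF2IP holds 1 GC box at -44. In the printed windows no matches overlapped one another. Of all 35116 windows, 16.4% hold a CHR element, 34.6% a CCAAT box, 7.26% an E-box, 45.0% a GC box, 3.31% an E2F site and 9.05% a telomeric repeat. G and C made up 77.3% of the TERT window, 54.7% of the PIF1 window and 63.0% of the TERF2IP window, beside a median of 58.7% over all windows. ACD was the one measured member with a window that held an E2F match, TTTCCCGC on the opposite strand at -5. A match describes letters and is not a binding site.

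TERT was nearly absent from the FIR libraries. TERT (ENSG00000164362.20, chromosome 5, 1253147 to 1295047, minus strand, hg38) had 1, 4 and 9 reads in FIR libraries 1 to 3, against 206, 245 and 137 in untreated libraries 1 to 3. As CPM, reads scaled to a common library size, that is 0.0612, 0.259 and 0.566 CPM in FIR cells and 10.7, 11.4 and 7.99 CPM in untreated cells. The groups do not overlap, and the FIR libraries spread over a wider relative range than the untreated ones. Summed over libraries TERT was 34.6 times lower in FIR cells, with a 95% counting interval of 20.5 to 63.7 that covers counting error only. The edgeR fit gave a log2 fold change of -5.06 with 95% bounds of -5.84 and -4.29, which include the spread between libraries; without FIR replicate 3, which holds 9 of the 14 reads, it was -5.94. In bulk RNA, fewer cells expressing a gene and less RNA per cell cannot be told apart. Both TERT and PIF1 reached 0.6 CPM in the untreated libraries only, the level that every row of the table reaches in at least 3 libraries, so both are in the table through the group where they are high.

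DKC1, which holds the telomerase RNA and also guides pseudouridine into ribosomal RNA, changed little beside TERT. DKC1 (ENSG00000130826.18, chromosome X, 154762742 to 154777689, plus strand) stood at 111, 114 and 107 CPM in FIR cells, against 162, 147 and 142 CPM in untreated cells. Every FIR library lies below every untreated one. The log2 fold change was -0.44 (SE 0.08).

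**Figure D1:**
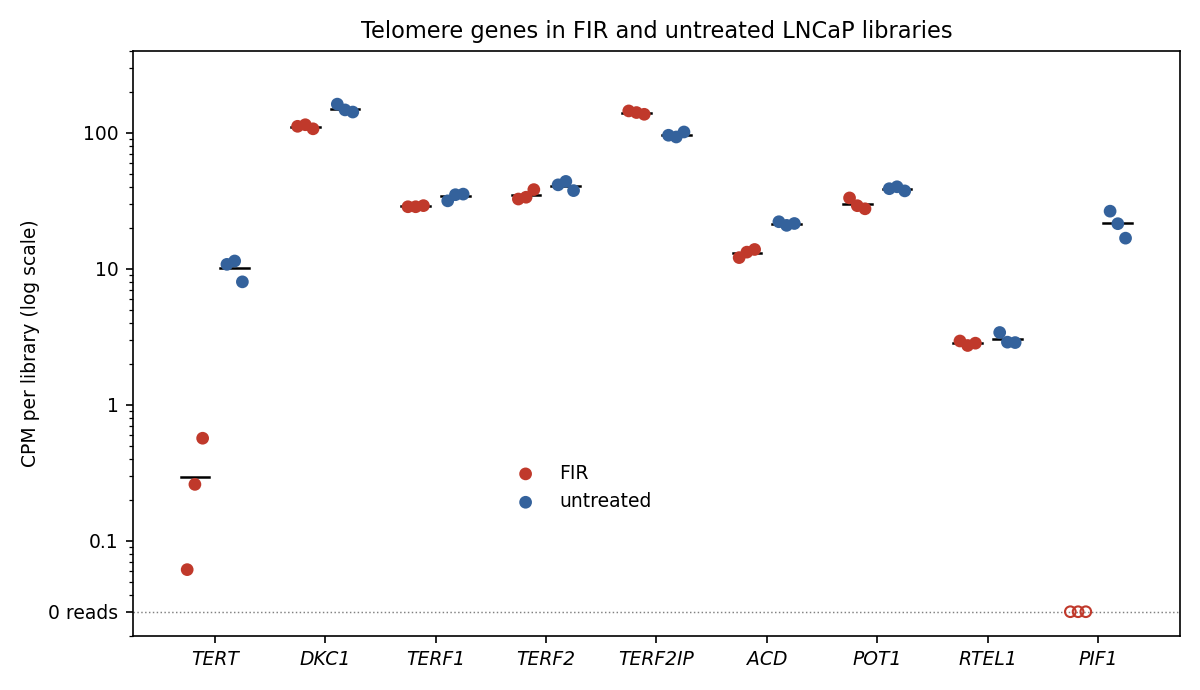
CPM (log axis) of the 9 members with a row, FIR libraries in red left of untreated libraries in blue; black bars are group means (n = 3) and open circles on the dotted line have 0 reads. PIF1 has 0 reads in all 3 FIR libraries and TERT lies between 0.0612 and 0.566 CPM there, while the 5 shelterin genes lie between 12.1 and 144 CPM.

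PIF1 had no read in any FIR library. PIF1 (ENSG00000140451.13, chromosome 15, 64815632 to 64825668, minus strand) had 0 reads in FIR libraries 1, 2 and 3, against 507, 461 and 287 reads in the untreated libraries, which is 26.4, 21.4 and 16.7 CPM there. Taking a floor of 3 reads over the FIR group, PIF1 was at least 345-fold lower in FIR cells, a log2 bound of -8.43. The bound rests on the depth of the FIR group: it was -7.82 without FIR replicate 1, -7.87 without FIR replicate 2 and -7.84 without FIR replicate 3. Of the 16311 genes 80 had a lower fitted log2 fold change than TERT, and 0.527% had one below -5.

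RTEL1 differed little between the groups, at a low count. RTEL1 (ENSG00000258366.8, chromosome 20, 63657810 to 63696253, plus strand) had 48, 42 and 45 reads in FIR cells, against 65, 62 and 49 in untreated cells. That is 2.94, 2.72 and 2.83 CPM in FIR libraries and 3.39, 2.88 and 2.86 CPM in untreated libraries, which overlap. The log2 fold change was -0.10, with 95% bounds of -0.59 and 0.38. Of the exonic bases of RTEL1, 70.2% are also exons of RTEL1-TNFRSF6B, a readthrough gene on the same strand, so reads of the 2 rows cannot be fully separated. RTEL1-TNFRSF6B had 40, 48 and 60 reads in FIR cells, against 83, 106 and 79 in untreated cells, a log2 fold change of -0.57 (SE 0.22, edgeR adjusted p = 0.042). With both rows summed, a step chosen after seeing the data, RTEL1 stood at -0.37 (95% bounds, not adjusted for the number of genes, -0.72 and -0.02) and did not pass the adjusted threshold of 0.05.

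Shelterin genes were expressed in both groups, and their differences were small in either direction. TERF2IP (ENSG00000166848.7, chromosome 16, 75647773 to 75761872, plus strand), which stabilises TRF2 on telomeres, stood at 144, 140.5 and 136 CPM in FIR cells, against 95.7, 92.9 and 101 CPM in untreated cells. All FIR libraries lie above all untreated ones, and the log2 fold change was 0.54 (SE 0.07), 1.45 times higher. ACD (ENSG00000102977.16, chromosome 16, 67657512 to 67660815, minus strand), the subunit that brings telomerase to the chromosome end, stood at 12.1, 13.2 and 13.8 CPM in FIR cells, against 22.1, 20.8 and 21.5 CPM in untreated cells. It was the shelterin subunit with the lowest log2 fold change, -0.72 (SE 0.12), with no overlap between groups.

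POT1 (ENSG00000128513.16, chromosome 7, 124822386 to 124929983, minus strand), which covers the single-stranded overhang, stood at 33.1, 29.02 and 27.5 CPM in FIR cells, against 38.7, 40.0 and 37.3 CPM in untreated cells, a log2 fold change of -0.37 (SE 0.10) without overlap. TERF1 (ENSG00000147601.14, chromosome 8, 73008864 to 73048123, plus strand) stood at 28.5, 28.5 and 29.1 CPM in FIR cells, against 31.5, 35.0 and 35.3 CPM in untreated cells. TERF2 (ENSG00000132604.11, chromosome 16, 69355567 to 69408571, minus strand) stood at 32.5, 33.5 and 38.1 CPM in FIR cells, against 41.3, 43.8 and 37.5 CPM in untreated cells. TERF1 and TERF2 each had a log2 fold change of -0.24, but the TERF1 libraries do not overlap and those of TERF2 do, through FIR library 3 and untreated library 3.

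Counted against the table as a whole, 7 of the 9 members passed an adjusted p of 0.05 by edgeR, where 48.7% of all genes passed; 6 were lower, where 23.4% of genes were, and 1 was higher, where 25.4% were. Libraries of the groups did not overlap in 7 of the 9, beside 56.9% of all genes: 6 had every FIR library below every untreated one, beside 27.5%, and 1 had every FIR library above, beside 29.4%. Because the set was chosen on this contrast, nothing is read from these counts. Of the 5 shelterin subunits 3 passed as lower (ACD, POT1 and TERF1), TERF2IP passed as higher and TERF2 did not pass. The TERF1 call is weak: it was lost under 6 of 14 alternatives, among them each fit without untreated replicate 2, untreated replicate 3, FIR replicate 1, FIR replicate 2 or FIR replicate 3.

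**Figure D2:**
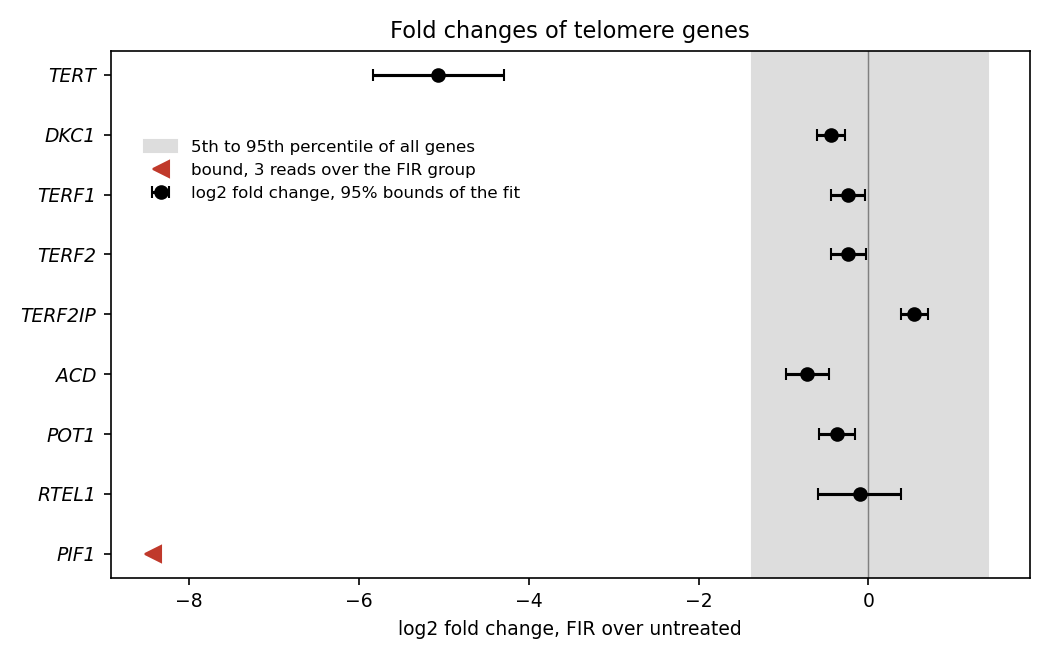
Log2 fold change, FIR over untreated, with 95% bounds of the edgeR fit (3 libraries a group); the grey band spans the 5th to 95th percentile of all 16311 genes and the triangle is the PIF1 bound from 3 reads over the FIR group. TERT at -5.06 and PIF1 at -8.43 or below lie outside the band of -1.37 to 1.41, and the other 7 members lie inside it.

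Set against shelterin, TERT and PIF1 stood apart by several log2 units. The 5 subunits had log2 fold changes from -0.72 to 0.54 with a median of -0.24, beside a median of 0.01 over all 16311 genes. The TERT log2 fold change minus that median was -4.82, and the PIF1 bound minus it was -8.19, while DKC1 gave -0.20 and RTEL1 0.14. Within single libraries, log2 CPM of TERT minus the mean log2 CPM of the 5 subunits was -9.16, -7.07 and -5.98 in FIR cells, against -1.91, -1.85 and -2.34 in untreated cells. Every FIR library lies more than 3 log2 units below every untreated one on that difference. Nothing was added to the CPM before the log, and the FIR values rest on 1, 4 and 9 TERT reads, so they are imprecise.

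Levels per length place the members on one scale. In FIR cells TERF2IP ranked first at 31.8 ± 0.900 RPKM, followed by DKC1 at 26.4 ± 0.907, TERF2 at 6.16 ± 0.532, ACD at 4.04 ± 0.280, POT1 at 3.43 ± 0.330, TERF1 at 3.25 ± 0.0352, RTEL1 at 0.439 ± 0.0168 and TERT at 0.0501 ± 0.0431 RPKM (SD, n = 3), with PIF1 listed last at 0. In untreated cells DKC1 ranked first at 35.7 ± 2.51 RPKM, followed by TERF2IP at 21.8 ± 0.946, TERF2 at 7.25 ± 0.565, ACD at 6.66 ± 0.204, PIF1 at 4.62 ± 1.04, POT1 at 4.43 ± 0.154, TERF1 at 3.84 ± 0.238, TERT at 1.70 ± 0.305 and RTEL1 at 0.473 ± 0.0469 RPKM (SD, n = 3). Neighbours whose libraries overlapped were ACD with POT1 and POT1 with TERF1 in FIR cells, and TERF2 with ACD and PIF1 with POT1 in untreated cells. PIF1 transcripts were thus at the level of POT1 in untreated cells, and TERT was below every shelterin subunit in both groups. The RTEL1 level is uncertain. It divides by the full length, but 70.2% of the exonic bases are shared with RTEL1-TNFRSF6B, whose reads are counted in a row of their own. The place of RTEL1 below TERT in untreated cells may therefore not hold.

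The make-up of the shelterin transcripts shifted towards TERF2IP. Its share of the summed RPKM of the 5 subunits was 66.4%, 65.7% and 63.8% in FIR libraries, against 49.4%, 48.0% and 51.4% in untreated libraries. The ACD share was 8.32% ± 0.651 in FIR cells and 15.1% ± 0.472 in untreated cells (SD, n = 3). The sum itself was 48.6 ± 0.472 RPKM in FIR cells and 44.0 ± 0.374 RPKM in untreated cells (SD, n = 3). These are RNA values, and TINF2 is not in the sum.

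**Figure D3:**
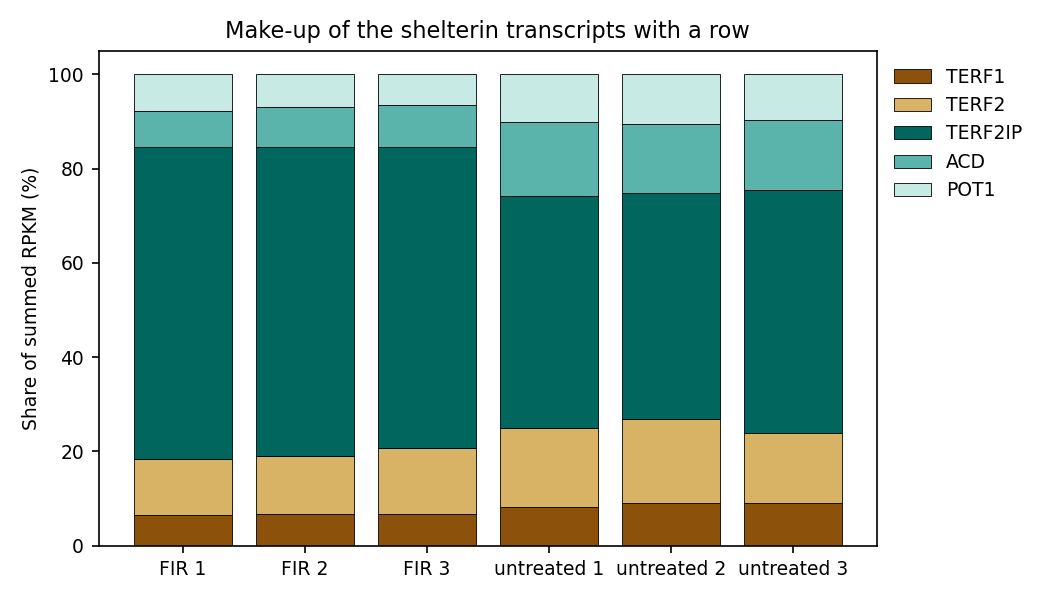
Share (%) of the summed RPKM of the 5 shelterin genes with a row, 1 stacked bar per library, FIR libraries left of untreated libraries. TERF2IP takes 63.8% to 66.4% in FIR libraries and 48.0% to 51.4% in untreated libraries.

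Genes that assemble telomerase were mostly lower by modest amounts. Of 18 listed genes 16 had a row, and 11 fell, 2 rose and 3 did not pass (edgeR, adjusted over all genes), where 23.4% of all genes were lower and 25.4% higher, with a median log2 fold change of -0.40 beside 0.01 for all genes. WRAP53 (TCAB1), which delivers telomerase to Cajal bodies, fell to 12.5 ± 0.242 CPM in FIR cells, against 27.0 ± 4.46 CPM in untreated cells (SD, n = 3; log2 fold change -1.11, SE 0.13, edgeR adjusted p = 6.6e-06). TOE1, an exonuclease that trims the telomerase RNA, fell by 0.98 on the log2 scale (SE 0.13, edgeR adjusted p = 1.4e-05). RUVBL2, an ATPase of assembly, fell by 0.79, and GAR1, a partner of dyskerin, fell by 0.51. TEP1, a telomerase-associated protein, rose by 0.64 and NOP10, another dyskerin partner, rose by 0.25, while NHP2 stood at -0.01 and did not pass; without untreated replicate 2 the count that rose was 1. The telomerase RNA gene TERC had no row and is not analysed here. This list and the lists that follow were chosen with earlier results of these data known, so their counts are a description.

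The CST complex and its polymerase divided. CST is the single-strand binding complex that ends telomerase action and calls in DNA polymerase alpha-primase to fill in the other strand. Of 7 listed genes 6 had a row, 4 fell, 1 rose and 1 did not pass, with a median of -0.97, beside 23.4% lower, 25.4% higher and a median of 0.01 over all genes. The 4 that fell are the polymerase and primase subunits: PRIM1 fell to 2.25 ± 0.633 CPM in FIR cells, against 13.8 ± 2.06 CPM in untreated cells (SD, n = 3; log2 fold change -2.62, edgeR adjusted p = 1.0e-07), POLA2 fell by 2.26, POLA1 fell by 1.10 and PRIM2 fell by 0.83. STN1, a CST subunit, rose to 38.2 ± 3.77 CPM in FIR cells, against 18.1 ± 1.33 CPM in untreated cells (SD, n = 3; log2 fold change 1.08, edgeR adjusted p = 1.2e-06). CTC1, the largest CST subunit, stood at 0.04 and did not pass.

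Other telomere-associated genes were called in either direction at about the rate of the whole table. All 26 listed genes had a row, 6 rose, 6 fell and 14 did not pass, with a median of 0.03; over all genes 25.4% were higher and 23.4% lower, with a median of 0.01. FEN1, the flap nuclease of lagging-strand synthesis, fell to 16.4 ± 1.19 CPM in FIR cells, against 108 ± 21.2 CPM in untreated cells (SD, n = 3; log2 fold change -2.72, edgeR adjusted p = 2.7e-10). DCLRE1B (Apollo), the nuclease that TRF2 recruits to trim the leading-strand end, fell by 1.00 (SE 0.14). TELO2 and TTI1, partners in the complex that matures DNA damage kinases, fell by 0.68 and 0.54, RIF1, a regulator of replication timing and end joining, fell by 0.58, and MRE11, a nuclease of break repair, fell by 0.50. TTI2, a partner of TELO2 and TTI1, stood at -0.11 and did not pass. RAD50 and NBN, partners of MRE11, stood at 0.24 and -0.17 and did not pass. ZNF827, a zinc finger protein found at telomeres of cells without telomerase, rose by 0.85, SMG6, a nuclease of RNA decay, rose by 0.74, and PML and SP100, of nuclear bodies, rose by 0.68 and 0.69. ATRX, a chromatin remodeller often lost in cancers that lack telomerase, rose by 0.34. The tankyrase gene TNKS2, whose product releases TRF1 from DNA, rose by 0.36. TNKS has a second row on an alternate sequence, so its reads are split and it is given no value. Its main row is still counted among the 14 that did not pass and in the median.

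PIF1 was compared with 28 other DNA helicases and translocases, all with a row. Of these 17 fell, 3 rose and 8 did not pass, with a median of -0.35, where 23.4% of all genes were lower and 25.4% higher with a median of 0.01. Of the 28, 0 had a log2 fold change below that of TERT. BLM, the Bloom syndrome helicase, fell to 0.335 ± 0.202 CPM in FIR cells, against 11.1 ± 2.30 CPM in untreated cells (SD, n = 3; log2 fold change -5.02, edgeR adjusted p = 6.5e-09). RAD54L, a translocase of homologous recombination, fell to 0.926 ± 0.233 CPM in FIR cells, against 24.3 ± 5.89 CPM in untreated cells (SD, n = 3; log2 fold change -4.71, edgeR adjusted p = 6.8e-10). BLM lay under 0.6 CPM in every FIR library, so like PIF1 it is in the table through its untreated libraries. BRIP1, which like RTEL1 is an iron-sulphur helicase, fell by 4.15. WRN, the Werner syndrome helicase that acts at telomeres, stood at 0.23 and did not pass, and RECQL5 stood at -0.04. The 3 that rose were HFM1, ERCC6 and FBH1; without FIR replicate 1 the count was 0, without untreated replicate 3 it was 2, and without any other single library it was 1.

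Transcription factors known from TERT promoter studies showed no common direction, and shares called were near those of the table. Of 32 listed genes 30 had a row, 9 rose, 6 fell and 15 did not pass, with a median of 0.03, beside 25.4% higher, 23.4% lower and a median of 0.01 over all genes. E2F1 fell to 5.12 ± 1.54 CPM in FIR cells, against 84.5 ± 24.4 CPM in untreated cells (SD, n = 3; log2 fold change -4.04, edgeR adjusted p = 1.0e-09). Among the MAX partners that oppose MYC at E-boxes, MXD3 fell by 2.14 (SE 0.17), while MXD1 rose by 1.27 and MXD4 rose by 0.98. MYC itself rose by 0.25 (SE 0.07, edgeR adjusted p = 0.0079). The GC box factors SP1 and SP3 stood at -0.06 and -0.04 and did not pass. Without untreated replicate 1 the count of factors that rose was 5.

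Proliferation markers fell with TERT and PIF1. All 12 fell, where 23.4% of all genes did, with a median of -4.67, and 4 had a log2 fold change below that of TERT. Like the other lists, this one was chosen with earlier results of these data known, so nothing is read from the count. TOP2A, the mitotic topoisomerase, fell by 7.31 (SE 0.16, edgeR adjusted p = 1.8e-13), and AURKB, a mitotic kinase, fell by 7.06 (SE 0.25). AURKB lay under 0.6 CPM in every FIR library, so it is in the table through its untreated libraries. The summed level of the 12 markers was 189, 193 and 183 CPM in FIR libraries, against 1621, 1502 and 1130.0 CPM in untreated libraries. Untreated library 3, the lowest of its group in that sum, also had the lowest TERT and PIF1 values of its group. The highest sum and the highest PIF1 value were both in untreated library 1, but the highest TERT value was in untreated library 2. FIR library 3 had the lowest sum of its group and the highest TERT value, on 9 reads. The part of proliferation in the TERT and PIF1 values was not tested.

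**Figure D4:**
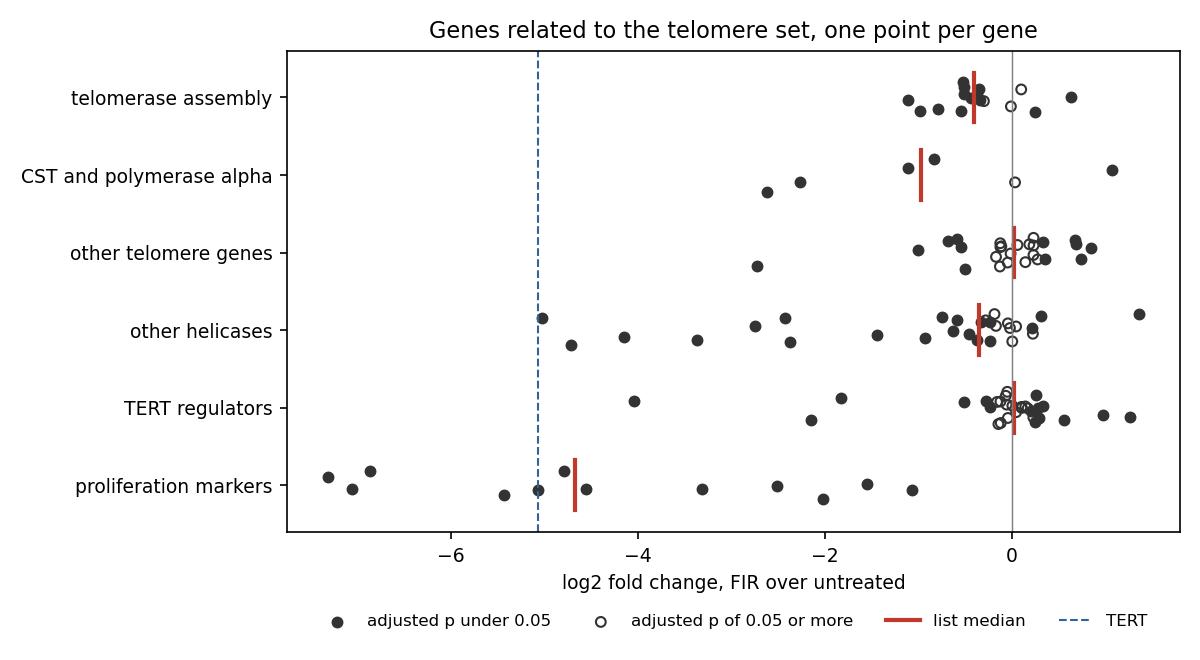
Log2 fold change, FIR over untreated, of each gene with a row in 6 lists, filled where the edgeR adjusted p is under 0.05; red bars are list medians and the dashed line marks TERT at -5.06. List medians run from -4.67 in the proliferation markers to 0.03 in the TERT regulators and other telomere genes.

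The genes nearest to TERT in pattern were found by the Euclidean distance of centred log2 CPM over the 6 libraries. They were CKAP2L at a distance of 0.565, CDC25C at 0.802, SLC22A2 at 0.817, AL591069.1 at 0.913 and CDCA2 at 0.914. CKAP2L and CDC25C are genes of mitosis, and SLC22A2 is a cation transporter; their log2 fold changes were -5.05, -4.62 and -4.72. For PIF1 the nearest were NCAPG at 0.354, CEP55 at 0.448, NEK2 at 0.756, BIRC5 at 0.781 and DLGAP5 at 0.789, all genes of mitosis, with log2 fold changes of -8.11, -8.45, -8.02, -8.05 and -8.13. With 2 groups these distances mostly reflect the difference between the groups, and they depend on the prior count: at a prior count of 0.5 in place of 2, 4 of the 5 genes for TERT and 3 of the 5 for PIF1 were shared. The 2 nearest to PIF1 were then NEIL3 at 0.944 and MND1 at 1.56, both with 0 reads in every FIR library, and NEK2 and DLGAP5 dropped out. NCAPG, CEP55, NEK2, DLGAP5, NEIL3 and MND1 lay under 0.6 CPM in every FIR library. Like PIF1 they are in the table through their untreated libraries, and their fold changes rest on few or no FIR reads.

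Rows beside TERT on chromosome 5 had log2 fold changes much nearer to 0. CLPTM1L, the next row upstream of the TERT start and 22705 bases from the gene, had a log2 fold change of -0.44 (SE 0.09, edgeR adjusted p = 0.0011), and SLC12A7, the next row on the other side, stood at -0.10, with a further SLC12A7 row on an alternate sequence at 0.03. Of 23 rows that start within 1 Mb of the TERT start, 6 rose, 6 fell and 11 did not pass, with a median of 0.06, which is close to the 25.4% higher and 23.4% lower over all genes. The lowest was TRIP13, an ATPase of the spindle checkpoint, at -1.88.

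Beside PIF1 on chromosome 15, a scarce gene was lower too. RBPMS2, an RNA-binding protein gene 40043 bases away, had 1, 0 and 1 reads in FIR libraries, against 37, 22 and 26 in untreated libraries, 35.0 times lower in FIR cells with a 95% counting interval of 9.4 to 294. Like PIF1, RBPMS2 reached 0.6 CPM in the untreated libraries only. PLEKHO2, the next row on the other side, stood at -0.38 and did not pass. Of 27 rows that start within 1 Mb of the PIF1 start, 10 rose, 8 fell and 9 did not pass, with a median of -0.01, beside the same shares of 25.4% and 23.4% over all genes. The lowest was PCLAF, a PCNA-associated factor of replicating cells, which fell by 5.22 (edgeR adjusted p = 2.5e-08). Both windows of 1 Mb were chosen after seeing the data.

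**Figure D5:**
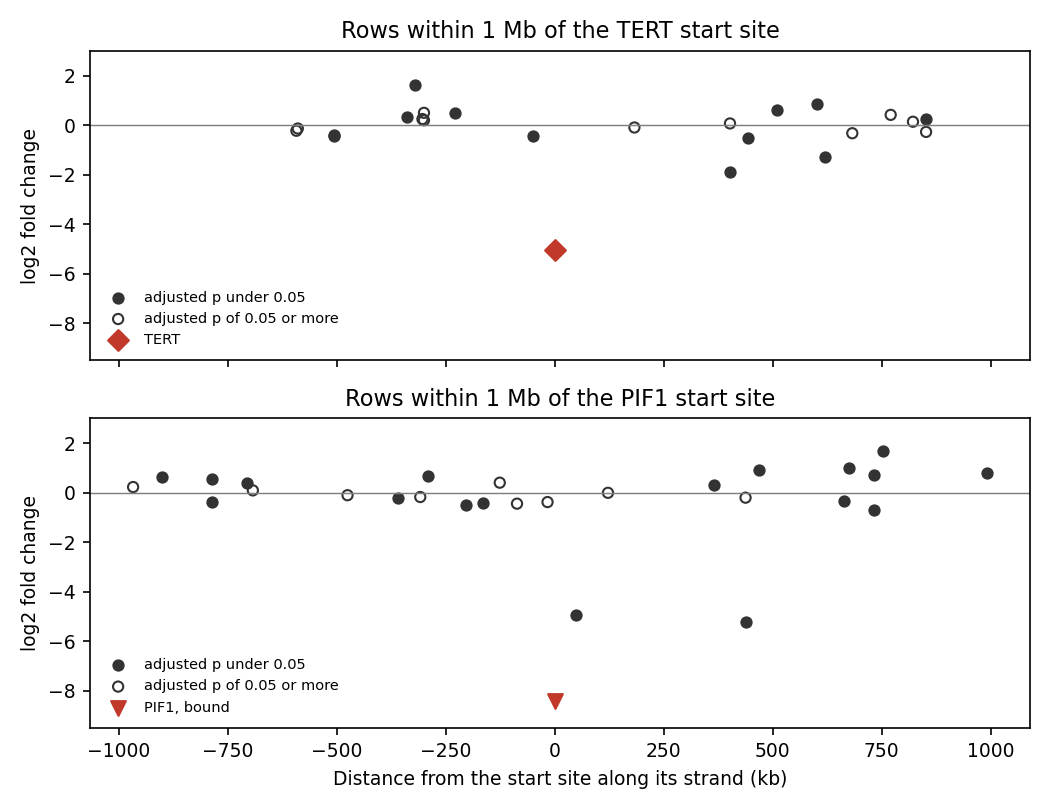
Log2 fold change, FIR over untreated, of rows that start within 1 Mb of the TERT start site (top) and the PIF1 start site (bottom), against distance in kb along the strand of each gene; filled points pass an edgeR adjusted p of 0.05. TERT at -5.06 lies below all 23 neighbours, of which the lowest is at -1.88, and around PIF1 the rows RBPMS2 and PCLAF lie at -4.93 and -5.22.

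Other members also overlap or adjoin other rows. TERF2IP shares 3.98% of its exonic bases with KARS, which runs the other way, ACD shares 1.80% with CARMIL2 and POT1 shares 1.27% with POT1-AS1; TERT, PIF1, DKC1, TERF1 and TERF2 share none with another row. KARS fell by 0.22 and CARMIL2 rose by 0.85, each opposite to the member it overlaps. The strand setting of the counting is not given in the sources used here, so reads of such pairs cannot be told apart where they overlap.

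Library totals over the listed genes ran from 15703483 to 16542096 reads in FIR libraries and from 16805679 to 21004697 in untreated libraries, so 3 reads equal 0.184 to 0.194 CPM and 0.139 to 0.175 CPM. All 8 prostate luminal markers had a row, with summed levels of 6562 to 7259 CPM in FIR libraries and 6399 to 7192 CPM in untreated libraries; 4 rose and 2 fell. Of 6 immune markers 0 had a row, among them PTPRC and CD3E. Of 7 fibroblast and smooth muscle markers 4 had a row, at 14.4 to 19.0 CPM in FIR libraries and 26.5 to 29.7 CPM in untreated libraries; 2 rose and 1 fell although the sum was lower, and DCN and LUM had none. Of 4 endothelial markers VWF had a row, at 5.08 to 6.22 CPM in FIR libraries and 28.9 to 40.6 CPM in untreated libraries, and PECAM1, CDH5 and KDR had none. The part of these markers in the telomere gene values was not tested.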

How the data were processed

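In 1 table the authors deposited, for each gene, unnormalized read counts of the 6 libraries, with each gene's coordinates and exonic length, per the file headers. Tools named in the submitters' processing notes, without roles or settings, are STAR 2.5, Subread 1.6.2, featureCounts, bcl2fastq and edgeR 3.20.8, on hg38. The sources used here do not give the annotation release, the strand setting or the low-count filter. Another 12 columns of per-sample values were not used.

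Scaling was by TMM, and glmQLFit and glmQLFTest of edgeR 4.0.16 (R 4.3.3) were run with group as the sole term and Benjamini-Hochberg adjustment over all 16311 genes, at a threshold of 0.05. All genes passed filterByExpr at its minimum count of 10. Each SE was taken as the absolute log2 fold change divided by the root of F. RPKM is TMM-scaled CPM per kilobase of deposited length. Counting intervals are exact binomial (95%) and the floor is 3 reads over a group; both cover counting error only. Pattern distances used log2 CPM with a prior count of 2. Lists and neighbours use rows on the main chromosomes.

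Members and lists were chosen with earlier results of these data known. Genes named are the members, the 2 called genes of largest change per list with at least 1 CPM, the 5 nearest in pattern to TERT and to PIF1, and adjacent or overlapping rows; other names were chosen after their values were seen. In simulated counts for this comparison (15606 genes), 82.5% of the 97 genes given a 2-fold change and 97.9% of the 95 given a 4-fold change were called, and 9 of 182 calls were false. The mean chi-square per gene between libraries of a group was 4.75 to 14.6, so each library counted as 1 sample. The 14 alternatives changed the scaling (RLE, upper-quartile, library size), the tool (DESeq2 1.42.0; limma-voom, limma 3.58.1), the filter (none; 1 CPM in 3 libraries) or the design (a block for the replicate number), or omitted 1 library.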

Additional observations from a re-analysis of the deposited data

How the results depend on the processing

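Over all genes, counts stayed within 1.5 times of 4136 higher and 3811 lower under each of the 14 alternatives, from 3401 to 4162 higher and from 3368 to 4346 lower. Library-size scaling gave 3685 higher and 4346 lower, and DESeq2 and every other setting lay within these ranges. The no-filter setting removed no gene, so it repeats the main fit and is not a separate check, although it is counted among the 14. A replicate block gave 3988 higher and 3668 lower genes, with 1 member higher and 5 lower. Libraries sharing a number did not deviate together (r = 0.073, -0.085 and -0.108), so the numbers were not treated as pairs. TERF1 passed under 8 of the 14 alternatives, TERF2 under 5 and RTEL1 under 0. TERT and PIF1 were chosen on this contrast and are in the table through their untreated libraries, so their calls under the alternatives say nothing about stability. TERT minus the shelterin median ran from -5.63 to -4.34 over the left-out libraries, and the PIF1 bound minus that median from -8.27 to -7.54, smaller in size without a FIR library because the same 3 reads are then set against a smaller FIR total. The number of other helicases that rose was 3, but 1 under library-size scaling and 1 under DESeq2, and from 0 to 2 over the left-out libraries; the cause was not tested. Over the left-out libraries the number of telomerase assembly genes that rose ran from 1 to 2 (1 without untreated replicate 2), and that of TERT regulators that rose from 5 to 7. The order of members per length was the same for all 9 under library-size scaling of the levels. Few reads limit RTEL1, whose 135 FIR and 176 untreated reads leave bounds of -0.59 to 0.38. Whether depth or the 70.2% of exonic bases shared with RTEL1-TNFRSF6B keeps that count low was not tested.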
